A study of Mus musculus with 6 samples.

Results

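The mRNA levels of 10 genes of the insulin and insulin-like growth factor (IGF) pathway were followed in newborn mouse telencephalon with and without Tsc1 in the cortical lineage. The genes were the ligands Igf1 and Igf2, the receptors Igf1r, Igf2r and Insr, the binding proteins Igfbp2 and Igfbp5, the adaptors Irs1 and Irs2, and the adaptor Grb10. They were taken by symbol from the gene tables of the study, and all 10 were found among the 22651 genes listed. The samples were telencephalon tissues of 3 WT and 3 TSC1 mice at postnatal day 0, 1 library per mouse. All 6 mice carried both copies of the floxed Tsc1 gene (TSC1 flox/flox). The WT mice had 2 normal Emx1 copies (Emx1 +/+), and the TSC1 mice carried Emx1-cre on 1 copy. Cre from the Emx1 locus acts in cells of the embryonic dorsal cortex and their progeny, whereas telencephalon also holds striatum, blood vessels and membranes that come mostly from other lineages. In such whole tissue, fewer cells of a type and less RNA per cell cannot be told apart.

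IGF1, IGF2 and insulin are secreted ligands that bind the receptor tyrosine kinases IGF1R and INSR, whereas IGF2R binds IGF2 and carries it to lysosomes for breakdown. IGF-binding proteins hold IGFs outside the cell. Active receptors phosphorylate IRS1 and IRS2, which recruit PI3-kinase and so activate AKT, and AKT inhibits the TSC complex that restrains mTORC1. The pathway also runs backwards: active mTORC1 and its kinase S6K1 act on IRS proteins, and mTORC1 phosphorylates and stabilizes the GRB10 protein, which binds and inhibits the receptors. Much of this feedback works on proteins, which mRNA tables do not measure. In the developing brain, Igf2 is known for its high expression in meninges, choroid plexus and vessels, and Igf2, Igf2r and Grb10 are imprinted genes.

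Total expected counts, the reads that RSEM assigned to genes, lay between 14119365 and 17772865 per library, and 3 counts corresponded to 0.169 to 0.212 CPM (counts scaled to the library total). Tsc1 itself was at 50.2, 32.0 and 28.4 TPM (a gene's share of all transcripts after correction for length) in WT and at 27.1, 21.7 and 22.4 TPM in TSC1. These counts cover the whole gene and not just the deleted exons. On the first principal component, TSC1 replicate 3 lay at -3.95 and the other TSC1 mice at 26.5 and 30.3, against -26.3 to -7.43 in WT. Xist and Y-linked transcripts marked replicate 3 of each group as the only male pup. Neurod6, a gene of cortical projection neurons, was high in every mouse (793 to 1103 TPM), while 6 genes of hindbrain and midbrain (Hox genes, En1, En2 and Gbx2) summed to 0.06 to 2.30 TPM. Markers of the striatum and subpallium were lower in TSC1 in 9 of 9 cases, 3 of them past the test described below, with summed levels of 488 to 582 TPM in WT and 254 to 363 TPM in TSC1, and none at 0.

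At the level of calls, none of the 10 genes passed. edgeR's quasi-likelihood test with a Benjamini-Hochberg adjusted p below 0.05 called 0 of 10, against 1.52% of the 13969 genes tested. All 10 genes passed the filter on low counts. At an unadjusted p below 0.05 the count was 3 of 10 (Igf2, Igfbp2 and Igf2r), against 18% of all genes. DESeq2 called 1 of 10 (Igfbp2), against 4.58% of all genes. The limma test on log2(TPM + 1) called 0, against 1.98%, and edgeR with the replicate number as a block called 0, against 3.94%. The levels in TSC1 did not overlap those in WT for 2 genes, Igf2 and Igfbp2, both lower, against 22.7% of all genes that did not overlap in either direction. The median log2 fold change of the 10 genes was 0.05, and that of all genes was -0.00267.

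By level, the list spanned more than an order of magnitude. In WT the order by mean TPM was Igf2 at 289.7 ± 58.3 (SD, n = 3), Igfbp2 at 252 ± 20.6, Igfbp5 at 79.9 ± 19.4, Grb10 at 48.8 ± 6.54 and Insr at 34.2 ± 5.54. Igf1r followed at 31.8 ± 4.69 TPM, Igf2r at 18.9 ± 3.61, Irs1 at 17.4 ± 2.49, Irs2 at 16.1 ± 1.98 and Igf1 at 9.43 ± 4.21. The ranges of Igf2 and Igfbp2 overlapped in WT, as did those of Insr and Igf1r and of Igf2r, Irs1 and Irs2, so the order within each of these sets was not resolved. In TSC1 the mean of Igfbp2 (197 ± 27.5 TPM) stood above that of Igf2 (173 ± 48.1 TPM), again with overlapping ranges. The 10 genes together summed to 691 to 856 TPM in WT and 574 to 701 TPM in TSC1, and Igf2 made up 32.8% to 39.9% of that sum in WT and 20.5% to 29.8% in TSC1.

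**Figure D1:**
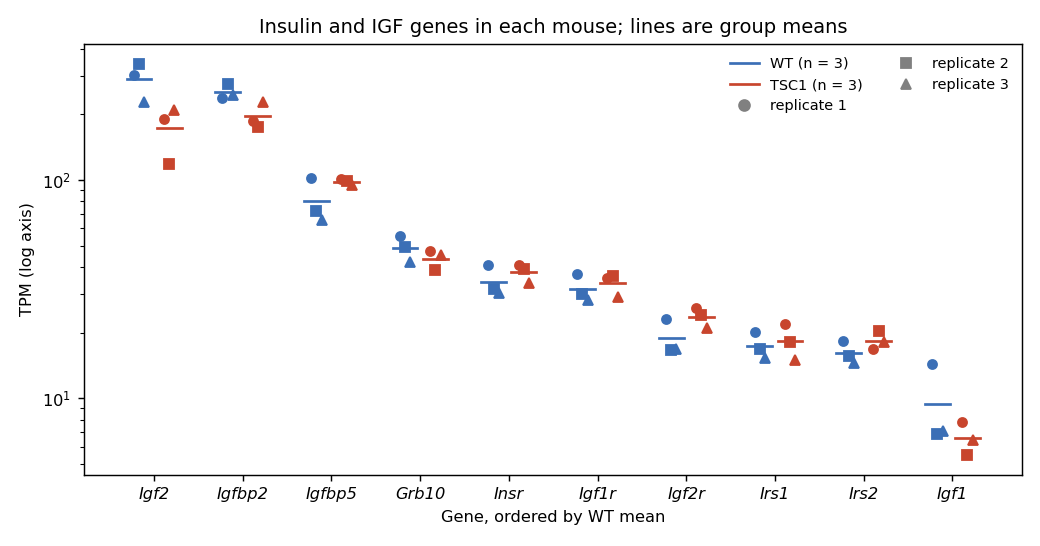
TPM of the 10 genes in each mouse on a log axis, WT in blue and TSC1 in red, with a symbol for each replicate number and a line at the group mean. In Igf2 and Igfbp2 all 3 TSC1 mice sit below all 3 WT mice, and in the other genes the groups overlap.

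Igf2, the fetal growth factor and the most abundant of the 10 mRNAs, was measured at 301, 341 and 226 TPM in WT replicates 1, 2 and 3. It was at 191, 118 and 209 TPM in TSC1 replicates 1, 2 and 3, a mean of 59.6% of WT. Every TSC1 mouse lay below every WT mouse, but TSC1 replicate 3 and WT replicate 3 were close to each other. The edgeR log2 fold change was -0.77 (standard error, SE, 0.20, 95% interval -1.23 to -0.32, adjusted p = 0.0926), which did not pass. Without TSC1 replicate 3, the value was -0.95 with an edgeR adjusted p of 0.0255, in a fit that called 5.68% of all genes. In each of the other 5 fits that left out 1 mouse it was not called, with values from -0.91 without WT replicate 3 to -0.57 without TSC1 replicate 2 and edgeR adjusted p from 0.10 to 0.305. Among the 4 mice left after removing replicate 3 of both groups, it was -1.09 with an edgeR adjusted p of 0.00653, and 3.1% of all genes were called. The gene lies on the minus strand of chromosome 7 (mm10, 142650766 to 142666816), and the antisense gene Igf2os and the read-through gene Gm49394 overlap it. The library kit does not keep strand, so reads of Igf2 and Igf2os cannot be told apart.

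Meningeal and fibroblast marker genes had lower means in TSC1 beside Igf2. All 10 markers of that list had a lower mean in TSC1 and 0 of 10 passed the edgeR test (3 at an unadjusted p below 0.05, 1 by DESeq2, 0 by limma), with a median log2 fold change of -0.43. Their summed level was 452, 474 and 287 TPM in WT and 279.8, 158 and 379 TPM in TSC1. None of the 10 markers was at 0 in any mouse. TSC1 replicate 2 had the least Igf2 and the least of these markers, and WT replicate 2 the most of both. Dividing Igf2 by the summed marker level of the same mouse, a ratio chosen after the values were seen, gave 0.667, 0.720 and 0.788 in WT and 0.681, 0.748 and 0.552 in TSC1. With this ratio the groups overlapped, and the difference was within the spread between mice (exact two-sided permutation test, p = 0.5, where 0.1 is the smallest that 3 against 3 allow).

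**Figure D2:**
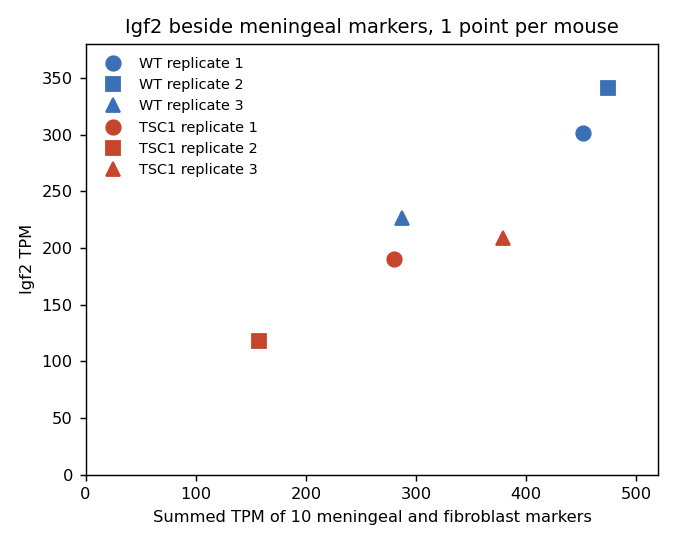
Igf2 TPM against the summed TPM of 10 meningeal and fibroblast markers, 1 point per mouse, both axes linear and from 0. The points run from TSC1 replicate 2 (158 TPM of markers, 118 TPM of Igf2) to WT replicate 2 (474 and 341 TPM), and TSC1 replicate 3 has more marker RNA than WT replicate 3 (379 against 287 TPM) but less Igf2.

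The other lists of non-neural cells did not all follow the same mice. The 8 choroid plexus markers summed to 1247 to 2541 TPM in WT and 97.9 to 929 TPM in TSC1, and all 8 had a lower mean in TSC1. For them TSC1 replicate 1 was lowest and WT replicate 3 highest, and 0 of 8 passed the edgeR test (7 at an unadjusted p below 0.05, 4 by DESeq2, 2 by limma). The 7 endothelial markers summed to 183 to 243 TPM in WT and 160.3 to 192 TPM in TSC1, with 5 of 7 lower, and the 6 pericyte markers to 177 to 229.6 TPM in WT and 146 to 178 TPM in TSC1, with 4 of 6 lower. No marker of these 3 lists was at 0 in any mouse, and of the 7 and 6 vessel markers edgeR called 0 (3 and 1 by DESeq2, 0 by limma). At an unadjusted p below 0.05, 4 of the 7 were lower and 1 higher, and 3 of the 6 lower and 1 higher. The 8 microglia markers summed to 120 to 164 TPM in WT and 117 to 173 TPM in TSC1, with 5 of 8 lower. Red blood cell markers summed to 1695 to 5567 TPM in WT and 1292.5 to 1783 TPM in TSC1, with 4 of 4 tested lower. Of these 2 lists too, edgeR called 0. The part of these cells in the Igf2 difference was not tested. H19, the imprinted noncoding RNA next to Igf2 that shares its enhancers, was at 67.4, 105 and 57.4 TPM in WT and 51.4, 30.5 and 73.8 TPM in TSC1. Its groups overlapped, its log2 fold change was -0.59 (SE 0.30, edgeR adjusted p = 0.349), and the ratio of Igf2 to H19 was 3.24 to 4.47 in WT and 2.83 to 3.87 in TSC1.

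Over the 6 mice, the genes whose log2 CPM was most like that of Igf2 were Vwa9, Foxd2, Tfpi, Chst14 and Scrn2, with Pearson r between 0.991 and 0.996 and Spearman rho between 0.943 and 1. Tfpi encodes tissue factor pathway inhibitor, an anticoagulant protein of vessel walls, and Foxd2 a forkhead transcription factor. These values rest on just 6 points. At a lower bar, 317 of 13968 genes had an r with Igf2 above 0.9.

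Igfbp2, the most abundant IGF-binding protein mRNA of the list, stood at 237, 276 and 244 TPM in WT and 187, 176 and 228 TPM in TSC1. The groups did not overlap and TSC1 replicate 3 was the mouse nearest to WT. The log2 fold change was -0.39 (SE 0.11, 95% interval -0.65 to -0.13, edgeR adjusted p = 0.12). DESeq2 gave the same size, -0.39, with an adjusted p of 0.0351. Without TSC1 replicate 3, edgeR gave -0.52 with an adjusted p of 0.0150, and in the other 5 fits that left out 1 mouse -0.46 to -0.32 with adjusted p from 0.0703 to 0.375. The choroid plexus, meningeal and vessel lists given above, and the striatal list, held more markers with a lower than with a higher mean in TSC1. Of 6 radial glia and astrocyte markers, 2 had a higher mean, both called by edgeR, and 4 a lower mean. These 6 summed to 2872 to 3455 TPM in WT and 2964 to 3134 TPM in TSC1. The part of all these cells in the Igfbp2 difference was not tested.

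The promoters of Igf2 and Igfbp2 are shown because these were the 2 genes of the list whose groups did not overlap. Non-overlap was found in 22.7% of all genes tested, so it does not set these 2 genes apart. Both hold GC boxes (GGGCGG), the short element bound by Sp1, as do other genes of the list. The 250 bases before the RefSeq start are given for the first of 2 starts of Igfbp2 (GRCm38.p6, chr1:72824230-72824479, plus strand, 67.2% GC) and for the start of Igf2 nearest to its coding part (chr7:142657497-142657746, minus strand, 66.0% GC), with GC boxes on either strand and E-boxes (CACGTG) in capitals.
Igf2: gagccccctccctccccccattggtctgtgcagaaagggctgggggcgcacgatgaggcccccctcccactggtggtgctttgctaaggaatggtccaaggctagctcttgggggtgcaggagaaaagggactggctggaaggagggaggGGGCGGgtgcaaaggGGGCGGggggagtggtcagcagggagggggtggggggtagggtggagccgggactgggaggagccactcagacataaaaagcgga
Igfbp2: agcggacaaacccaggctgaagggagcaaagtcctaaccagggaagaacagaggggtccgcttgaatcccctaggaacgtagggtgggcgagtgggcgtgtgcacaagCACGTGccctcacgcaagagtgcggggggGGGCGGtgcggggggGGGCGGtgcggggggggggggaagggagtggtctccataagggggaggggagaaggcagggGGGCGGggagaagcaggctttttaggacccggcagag
The Igf2 stretch holds 2 GC boxes, 100 and 85 bases before the start, and the Igfbp2 stretch holds 3, at 113, 98 and 37 bases, besides 1 E-box at 142 bases. A GC box is present in 32.7% of the 32851 stretches of this kind in the RefSeq table, and in 8 of the 14 stretches of the listed genes, with 5 boxes in 1 stretch of Grb10 and 3 in that of Igf2r, whose groups overlapped. RefSeq lists 4 starts for Igf2, and 2 of the 4 stretches held a GC box. The stretch before the second start of Igfbp2 held neither a GC box nor an E-box.

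Igfbp5 and Igf2r had higher means in TSC1, by an amount that depended on single WT mice. Igfbp5, whose protein binds IGFs and the extracellular matrix, was at 102, 72.2 and 65.6 TPM in WT and at 100.9, 98.7 and 94.99 TPM in TSC1. The 3 TSC1 mice were close to each other, and WT replicate 1 lay above all of them. The log2 fold change was 0.28 (SE 0.13, 95% interval -0.00921 to 0.56, edgeR adjusted p = 0.291). Without WT replicate 1 it was 0.46 with an edgeR adjusted p of 0.0169, in a fit that called 3.18% of all genes, and without WT replicate 3 it was 0.17 with an edgeR adjusted p of 0.647. Igf2r was at 23.0, 16.7 and 16.8 TPM in WT and at 25.8, 24.2 and 21.0 TPM in TSC1. The groups overlapped through WT replicate 1 alone. Its log2 fold change was 0.30 (SE 0.12, 95% interval 0.04 to 0.57, edgeR adjusted p = 0.22), and without WT replicate 1 it was 0.45 with an edgeR adjusted p of 0.0453. In the other 5 fits that left out 1 mouse, it was 0.23 to 0.37 and was not called. The antisense gene Airn overlaps Igf2r on chromosome 17 (mm10, 12682406 to 12769664), was at 3.59 to 7.58 TPM, and cannot be separated from it by strand.

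The ratio of Igf2 to Igf2r, the growth factor over the receptor that clears it, was 13.1, 20.4 and 13.4 in WT and 7.38, 4.88 and 9.96 in TSC1. The groups did not overlap, and the exact two-sided permutation test gave p = 0.1, the smallest it can give, and 0.6 after adjustment over the 6 ratios computed. This ratio too was chosen after the values were seen.

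The signaling receptors Insr and Igf1r differed little between the groups. Insr, the insulin receptor, was at 40.6, 31.7 and 30.4 TPM in WT and at 40.7, 39.1 and 33.9 TPM in TSC1. Igf1r, the IGF1 receptor, was at 37.1, 30.2 and 28.2 TPM in WT and at 35.7, 36.3 and 29.2 TPM in TSC1. In both genes WT replicate 1 and TSC1 replicates 1 and 2 were the higher mice, and the groups overlapped. The log2 fold change was 0.12 for Insr (SE 0.10, 95% interval -0.11 to 0.35, edgeR adjusted p = 0.566), from 0.06 without WT replicate 3 to 0.24 without WT replicate 1. That of Igf1r was 0.06 (SE 0.10, 95% interval -0.17 to 0.30, edgeR adjusted p = 0.796). Insr over Igf1r stayed near 1 in every mouse, at 1.05 to 1.09 in WT and 1.08 to 1.16 in TSC1.

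Irs1 and Irs2, the docking proteins through which both receptors reach PI3-kinase, were likewise not told apart from WT. Irs1 was at 20.2, 16.8 and 15.3 TPM in WT and at 22.0, 18.2 and 15.0 TPM in TSC1, and its log2 fold change was 0.05 (SE 0.13, 95% interval -0.25 to 0.34, edgeR adjusted p = 0.883). Irs2 was at 18.3, 15.6 and 14.5 TPM in WT and at 16.7, 20.4 and 18.1 TPM in TSC1, with 0.17 (SE 0.12, 95% interval -0.09 to 0.43, edgeR adjusted p = 0.482). The groups overlapped in both. With 1 mouse left out, Irs2 ran from 0.08 without TSC1 replicate 2 to 0.25 without TSC1 replicate 1. Irs2 over Irs1 was 0.906 to 0.943 in WT, a narrow range, and 0.762, 1.12 and 1.21 in TSC1, so that the TSC1 mice lay on both sides of WT (exact two-sided permutation test, p = 0.4).

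Irs1 and Irs2 were the only ones of the 9 listed genes with a promoter entry that held the core of an insulin response element (CAAAACA, or TGTTTTG on the other strand), which FoxO factors are known to bind. Their 250 bases before the RefSeq start are shown, Irs1 from chr1:82291440-82291689 and Irs2 from chr8:11008930-11009179 (GRCm38.p6, both minus strand), with this core and the E-box in capitals.
Irs1: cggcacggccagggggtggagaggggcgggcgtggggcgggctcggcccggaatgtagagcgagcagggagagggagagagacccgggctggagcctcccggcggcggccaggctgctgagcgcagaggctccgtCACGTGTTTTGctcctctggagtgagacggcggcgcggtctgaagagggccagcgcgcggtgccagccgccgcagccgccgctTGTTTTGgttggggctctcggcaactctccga
Irs2: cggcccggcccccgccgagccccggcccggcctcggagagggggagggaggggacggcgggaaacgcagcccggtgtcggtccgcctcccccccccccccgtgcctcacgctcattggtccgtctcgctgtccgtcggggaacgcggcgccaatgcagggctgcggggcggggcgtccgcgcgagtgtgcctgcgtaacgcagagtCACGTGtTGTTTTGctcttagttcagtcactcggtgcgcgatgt
In Irs1 the core begins 111 and 32 bases before the start, and the E-box at 115 bases overlaps the first of them. In Irs2 the E-box at 44 bases is followed by the core at 37 bases, with a single base between. The core occurs in 5.56% of all such stretches, the E-box in 6.02%, and both together in 0.295% (97 of 32851). The FoxO core GTAAACA, searched on both strands, was in 3.17% of all stretches and in 0 of the 14 entries of the listed genes. These matches describe the letters and are not evidence of binding.

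Transcripts of Igf1r, Insr, Irs1 and Igf2r are long (8929 to 11978 bases), and long transcripts as a class differed between the libraries. Over the 588 tested genes with a mean transcript length of at least 8000 bases, the median deviation of log2 CPM from the mean of the 6 mice was 0.08, -0.14 and -0.15 in WT and 0.13, 0.12 and -0.04 in TSC1. WT replicate 1 and TSC1 replicates 1 and 2 were thus the higher mice, as in Insr and Igf1r. The median log2 fold change of these 588 genes was 0.13, with 436 of them (74.2%) higher in TSC1, against -0.06 and 36.1% higher among the 3938 genes under 2000 bases. Insr, Igf1r and Irs1 had log2 fold changes no higher than the median of the long genes, and Igf2r a higher one. The length classes were set after the values were seen, and the part of transcript length in these differences was not tested.

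**Figure D3:**
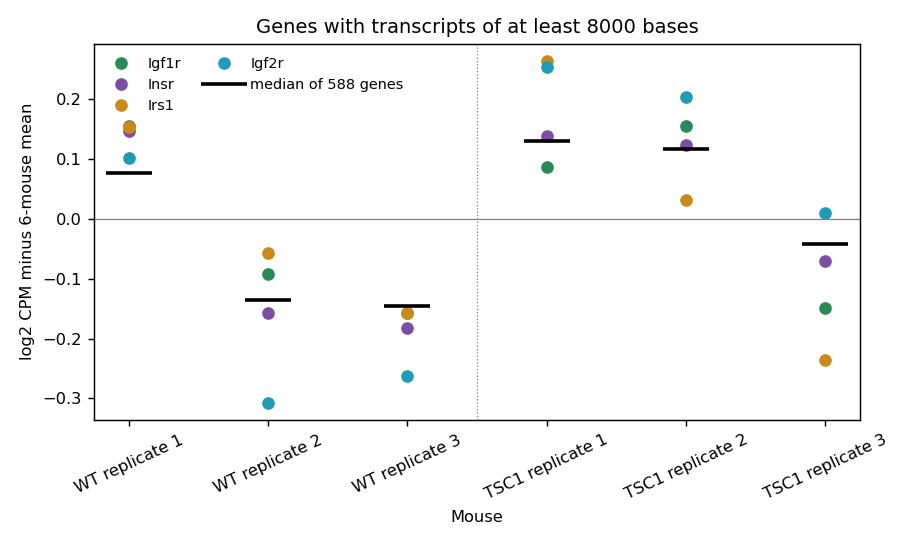
Deviation of log2 CPM from the mean of the 6 mice for Igf1r, Insr, Irs1 and Igf2r (points) and the median of the 588 genes with transcripts of at least 8000 bases (bars), by mouse. WT replicates 2 and 3 have medians of -0.14 and -0.15, and TSC1 replicates 1 and 2 of 0.13 and 0.12.

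Grb10, the adaptor that binds the insulin and IGF1 receptors and dampens their signal, was at 55.1, 49.2 and 42.1 TPM in WT and at 47.2, 38.6 and 45.4 TPM in TSC1. The groups overlapped. The log2 fold change was -0.18 (SE 0.10, 95% interval -0.41 to 0.05, edgeR adjusted p = 0.38), and it stayed between -0.26 and -0.11 when each mouse was left out in turn.

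Igf1, the second ligand, was the least abundant of the 10 genes. WT replicate 1 was at 14.3 TPM, and the other 5 mice lay between 5.49 and 7.81 TPM. The log2 fold change was -0.53 (SE 0.26, 95% interval -1.11 to 0.04, edgeR adjusted p = 0.312), and without WT replicate 1 it was -0.14. Of the 2 insulin genes, Ins2 gave no usable signal, since it was at 0 in 5 of 6 mice, and the other was not analysed here.

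RSEM's mean transcript length, which moves when a gene's isoforms change their shares, was fixed for the 7 genes with 1 listed isoform. For Igf1, Igf2 and Grb10, with 5, 3 and 2 isoforms, it varied by 0.394%, 0.246% and 0.28% across the 6 mice. The group means differed by -1.80 bases for Igf1, -4.96 for Igf2 and 1.38 for Grb10, within the spread between mice (exact two-sided permutation tests, p = 0.9, 0.3 and 0.9, each 0.9 after adjustment over the 3).

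**Figure D4:**
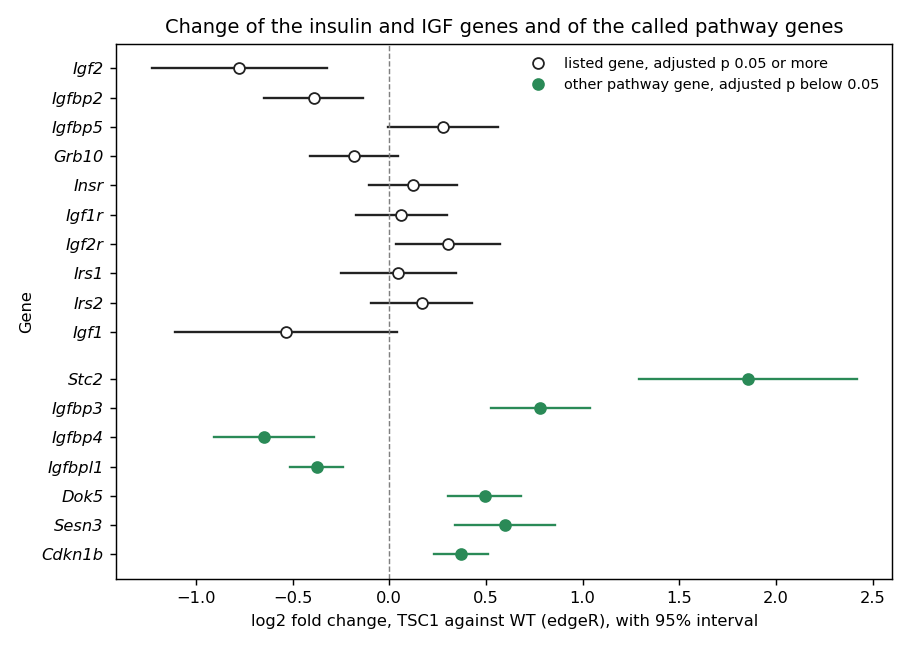
edgeR log2 fold changes of TSC1 against WT with 95% intervals, for the 10 genes (black, open points, adjusted p of 0.05 or more) and the 7 other pathway genes with an adjusted p below 0.05 (green, filled). Igf2 has the lowest value of the 10 genes, at -0.77, and Stc2 the highest of the 7, at 1.86.

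Beyond the 10 genes, the calls by edgeR were Stc2, Igfbp3, Dok5, Sesn3 and Cdkn1b, higher in TSC1, and Igfbp4 and Igfbpl1, lower. Lists of the pathway by role held 91 further genes, of which 79 were tested, 9 lay under the filter on low counts and 3 were not analysed here. Of the 79, edgeR called 5 higher and 2 lower, against 0.859% and 0.659% of all genes. Their median log2 fold change was 0.07. The groups did not overlap in 16 higher and 9 lower genes, against 12.3% and 10.3% of all genes. The lists were chosen with earlier results of these data known. Their shares, here and in each list below, are therefore not a test of the pathway.

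Of the 14 tested ligands, binding proteins and their regulators, a list that includes Igf1, Igf2, Igfbp2 and Igfbp5, 2 were called higher and 2 lower, with a median log2 fold change of -0.10. Stc2 encodes stanniocalcin 2, an inhibitor of the proteases (pappalysins) that free IGFs from binding proteins. It was at 3.56, 3.30 and 3.88 TPM in WT and rose to 18.4, 11.9 and 9.63 TPM in TSC1, by 1.86 in log2 (SE 0.25, edgeR adjusted p = 0.0137) on counts of 36 to 38 per WT mouse. Igfbp3, the main carrier of IGFs in serum, was at 52.8, 48.7 and 47.4 TPM in WT and at 105, 74.6 and 81.8 TPM in TSC1, a rise of 0.78 (SE 0.11, edgeR adjusted p = 0.0195). The binding protein Igfbp4, which the pappalysin PAPP-A cleaves, went the other way, from 104, 125 and 98.6 TPM in WT to 78.0, 61.7 and 74.0 TPM in TSC1. It fell by 0.65 on the log2 scale (SE 0.11, edgeR adjusted p = 0.0352). Igfbpl1, a neural gene related to the family, was at 296, 294 and 275 TPM in WT and 235, 232 and 213 TPM in TSC1, and fell by 0.38 (SE 0.06, edgeR adjusted p = 0.0268). All 4 genes had non-overlapping groups. Stc2 and Igfbp3 kept an edgeR adjusted p below 0.05 in 4 of the 6 fits that left out 1 mouse, being lost without WT replicate 2 (0.0913 and 0.125) and without WT replicate 3 (0.0533 and 0.0857). Igfbp4 and Igfbpl1 kept it in 2 of 6, without WT replicate 1 and without TSC1 replicate 3.

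Among the 20 tested receptors and adaptors, Igf1r, Igf2r, Insr, Irs1, Irs2 and Grb10 included, 1 was called, Dok5, an adaptor of receptor tyrosine kinases that is expressed in neurons. It rose from 126, 125 and 114 TPM in WT to 183, 188 and 154 TPM in TSC1, and its log2 fold change was 0.49 (SE 0.08, edgeR adjusted p = 0.0312). Without WT replicate 1 or TSC1 replicate 3 it stayed called, and without any of the other 4 mice it was not. The list's median was 0.08. Of the 15 PI3-kinase and AKT genes tested, 0 were called (3 by DESeq2, 1 by limma), 13 had a higher and 2 a lower mean, and the median was 0.18. At an unadjusted p below 0.05, 6 of these 15 genes passed edgeR's test. Pik3cd, a catalytic subunit of PI3-kinase, had the largest value of those whose groups did not overlap, at 0.38 (SE 0.10, edgeR adjusted p = 0.0947), with 22.2 to 25.1 TPM in WT and 28.2 to 35.9 TPM in TSC1.

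FoxO factors, which AKT keeps out of the nucleus, and genes known as their targets gave 2 calls among 17 tested, both higher, with a median log2 fold change of 0.12. Sesn3, a sestrin that FoxO factors induce, rose by 0.60 (SE 0.12, edgeR adjusted p = 0.0460), from 39.0, 31.8 and 30.0 TPM in WT to 59.4, 50.3 and 46.1 TPM in TSC1. Cdkn1b, which encodes the cell cycle inhibitor p27, rose by 0.37 (SE 0.06, edgeR adjusted p = 0.0297), from 107, 103 and 105 TPM to 144, 135 and 136 TPM. Both stayed called without WT replicate 1 or TSC1 replicate 3 and were lost without any of the other 4 mice. Irs2 and Insr are members of the same list and were not called. The FoxO factors themselves were not called either. Foxo1 was at 25.4, 19.7 and 19.7 TPM in WT and at 15.25, 16.1 and 17.4 TPM in TSC1, without overlap. Its log2 fold change was -0.43 (SE 0.11, edgeR adjusted p = 0.0918). For Foxo3, Foxo4 and Foxo6 the values were 0.11, 0.11 and -0.23, and the groups overlapped. Trib3, a pseudokinase described as an AKT inhibitor, was at 0.34 to 1.29 TPM in WT and 2.22 to 6.88 TPM in TSC1, with 2.20 (SE 0.53, edgeR adjusted p = 0.0764). Txnip, an inhibitor of glucose uptake, was at 110, 217 and 191 TPM in WT and at 35.6, 35.9 and 108 TPM in TSC1, with -1.55 (SE 0.43, edgeR adjusted p = 0.107). TSC1 replicate 3 lay just below WT replicate 1, and without TSC1 replicate 3 the value was -2.32 with an edgeR adjusted p of 0.00171. Trib3 passed too without that mouse (edgeR adjusted p = 0.0215).

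Among the 13 tested inhibitors of insulin signaling, a list that contains Grb10 and Tsc1, 0 were called by edgeR, 5 passed at an unadjusted p below 0.05, DESeq2 called 2 and limma 0. The median log2 fold change was 0.11. Tsc1 had the lowest value of those without overlap, at -0.66 (SE 0.18, edgeR adjusted p = 0.10), and was at -0.40 without WT replicate 1, the mouse with the most Tsc1. Of the 15 tested imprinted growth genes, Igf2, Igf2r and Grb10 among them, 0 were called as well, 5 had a higher and 10 a lower mean, and the median was -0.18. At an unadjusted p below 0.05, 5 of these 15 passed, DESeq2 called 1 and limma 0. Dlk1, a paternally expressed growth regulator, was at 2, 3.49 and 3.52 TPM in WT and at 1.01, 0.96 and 1.93 TPM in TSC1, and its log2 fold change was -1.24 (SE 0.34, edgeR adjusted p = 0.107). The 3 genes for Igf2 mRNA-binding proteins all had lower means and 0 were called (1 at an unadjusted p below 0.05, 1 by DESeq2, 0 by limma). Igf2bp2 was at 12.7, 15.5 and 14.2 TPM in WT and at 9.80, 9.08 and 11.4 TPM in TSC1, with -0.51 (SE 0.14, edgeR adjusted p = 0.097). Without TSC1 replicate 3, edgeR called Dlk1, Igf2bp2 and Pik3cd, with adjusted p from 0.0221 to 0.0340, and Dlk1 also passed without WT replicate 1 (edgeR adjusted p = 0.0428).

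**Figure D5:**
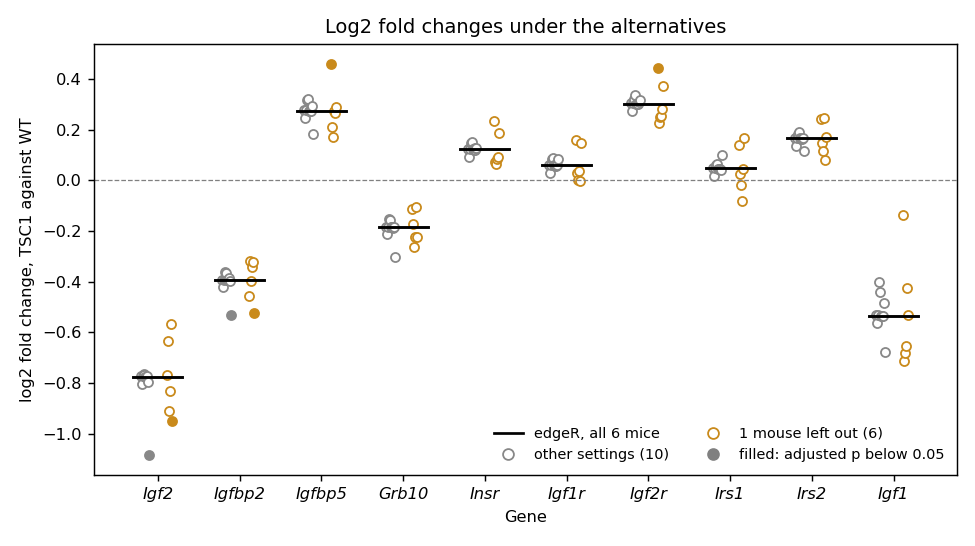
Log2 fold changes of the 10 genes from edgeR on all 6 mice (black lines), under 10 other settings (grey) and with 1 mouse left out (orange), filled where the adjusted p is below 0.05. Igf2, Igfbp2, Grb10 and Igf1 stay below 0 in every fit, Igfbp5, Igf2r, Insr and Irs2 stay above 0, and Igf1r and Irs1 cross it.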

How the data were processed

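The mRNA-sequencing data are RSEM gene tables of telencephalon tissue, 1 per mouse, from 3 WT and 3 TSC1 mice, grouped by the genotype labels. The authors trimmed the reads (101 bp, paired-end), mapped them with MapSplice2 on mm10, and obtained gene values from RefSeq transcripts by RSEM 1.2.12. The deposited expected count is RSEM's estimate of reads per gene, not normalized. The deposited TPM and FPKM are per transcript length, by RSEM, and the deposited length columns give bases. The main test, after rounding of the counts, was that of edgeR 4.0.16 under R 4.3.3 (TMM, filterByExpr, quasi-likelihood test, Benjamini-Hochberg adjustment over all genes tested, threshold 0.05). A standard error is the log2 fold change over the root of F. The permutation-based method of the study was not rerun. DESeq2 1.42.0 and limma 3.58.1 served as alternatives, beside other normalizations, filters, effective-length offsets, a replicate block and each mouse left out. On simulated counts with 200 of 13969 genes changed by 1.5 on the log2 scale, edgeR recovered 98.0% with 6.22% false calls. Every listed insulin and IGF gene had a smaller log2 fold change in the main test, the largest in size being -0.77 for Igf2. Recovery of such smaller changes was not simulated, so this rate does not bear on whether the listed genes changed. The simulation gave all genes the same dispersion and held no mouse that stood apart from its group. Its rate of false calls therefore need not hold for these data.

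All genes of the list are described. Other pathway genes are named where called, or as the largest rise or fall of their list without overlap. The FoxO factors, H19, Airn and Ins2 are named besides. Members, lists and markers were chosen with earlier results of these data known. Replicates of a group were distinct libraries (chi-square per degree of freedom 5.68 to 17.4). The WT mice were Cre-negative littermates, and which mice share a litter is not given in the sources used here, so p-values measure the spread between these mice. Transcript length minus RSEM's effective length, taken for Igf1r, was 45.8 to 49.7 bases in WT and 55.1 to 57.6 bases in TSC1. The groups did not overlap in this measure of the libraries, so it cannot be told apart from genotype. Its part in the differences of long transcripts was not tested. Positions are from GENCODE vM21 on GRCm38, the assembly of mm10, and promoters from the RefSeq table of GRCm38.p6, which matched 9 of 10 symbols.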

Additional observations from a re-analysis of the deposited data

How the results depend on the processing

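Over all genes, edgeR called 212 (120 higher, 92 lower). DESeq2 called 640 (339 and 301), the fit with no filter 346 (171 lower), and the fit without replicate 3 of both groups 434 (285 lower). Leaving out 1 mouse gave 29 to 799 genes (24 to 368 higher, 4 to 431 lower). Of the 10 insulin and IGF genes, 0 were called, with DESeq2 1, without replicate 3 of both groups 2, and with 1 mouse left out 0 to 2. Of the other pathway genes, 7 were called, with DESeq2 15, without replicate 3 of both groups 13, and with 1 mouse left out 0 to 17, namely 0 without WT replicate 2 or 3, 2 without TSC1 replicate 1 or 2, and 17 without TSC1 replicate 3. The causes of these shifts were not tested, and the fits on fewer mice have fewer degrees of freedom.

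The replicate block gave 551 genes (273 and 278), 14 of the other pathway genes, and 0 of the 10. It called Txnip (adjusted p 0.0246), Tsc1 (0.0217), Dlk1 (0.0345) and Pik3cd (0.0447), which the fit without it did not. Samples of the same number deviated together with r of 0.267, -0.133 and 0.318 (numbers 1, 2 and 3). For samples of different numbers, r ran from -0.394 to 0.211, so numbers 1 and 3 had the highest values. Number 3 is also the male pup of each group, so sex and number cannot be told apart there. Whether same-numbered mice share a litter is not given, and the numbers were not taken as a pairing.

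The log2 fold changes near 0 changed sign when 1 mouse was left out: Igf1r was -1.89e-05 without WT replicate 3 and -0.00249 without TSC1 replicate 2, with 0.160 as the highest value, and Irs1 was -0.0180 without WT replicate 3 and -0.0829 without TSC1 replicate 1, with 0.167 as the highest. Of 160 other fits of the 10 genes, 149 kept direction and side of the threshold, 7 newly passed and 4 changed sign. The order of the WT levels by FPKM was that by TPM, but TPM is FPKM rescaled within each mouse, so this is no separate check. Without replicate 3 of both groups, Igfbpl1 had an edgeR adjusted p of 0.0624, and with upper quartile normalization Sesn3 missed the threshold with 0.05004. Upper quartile normalization called 87 higher and 92 lower genes. Divided by the meningeal marker sum, the log2 ratio of the Igf2 group means was -0.13, against -0.75 undivided. This divisor was chosen after the values were seen, and the part of meningeal cells in the Igf2 difference was not tested. The counts of the 10 genes were 198 or more in every mouse, and Stc2 rests on 36 to 38 per WT mouse.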
